A study of Mus musculus with 16 samples.

Results

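Messenger RNA levels of 10 genes for demethylases of histone H3 were measured in the medial prefrontal cortex (mPFC) of 16 mice, with or without a knockdown of 1 of them, Kdm7a. The 10 genes were taken by symbol from the 26625 entries of the deposited gene table. They are the KDM7 subfamily (Kdm7a, Phf8 and Phf2), the KDM6 genes Kdm6a and Kdm6b, the KDM3 genes Kdm3a and Kdm3b, and the KDM4 genes Kdm4a, Kdm4b and Kdm4c. All 10 had enough reads to be tested, as did 18826 entries in all.

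All animals were male C57BL/6 mice of 8 to 10 weeks. Each received an adeno-associated virus in both sides of the mPFC about 3 weeks before conditioning, carrying a short hairpin RNA (shRNA) against Kdm7a or a control shRNA under the U6 promoter, which is active in cells of every type, together with EGFP. The mice were then conditioned for 10 days in a place preference box, on morphine (10 mg/kg) or saline, and the mPFC was taken on day 17, on the 7th day of withdrawal. With the control virus there were 3 Ctrl + Saline and 4 Ctrl + Morphine mice. With the knockdown virus there were 5 Kdm7a-shRNA + Saline mice and 4 Kdm7a-shRNA + Morphine mice. One shRNA construct stands for the knockdown, its sequence is not given in the sources used here, and the infected share of the tissue was not analysed here. RNA of the whole dissected tissue was sequenced, so that fewer cells of a type and less RNA per cell cannot be told apart.

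Lysine residues of histone H3 carry 1 to 3 methyl groups. Methylation of lysine 9 (H3K9) and of lysine 27 (H3K27) marks silent chromatin. Demethylases with a Jumonji C domain remove these groups with iron and 2-oxoglutarate as cofactors, and families differ in the residue and in the number of methyl groups they act on. KDM7A removes dimethyl groups from both residues, and a PHD finger beside its catalytic domain binds trimethylated lysine 4, a mark of active promoters. PHF8 and PHF2 share this arrangement of domains and act on H3K9. KDM6A and KDM6B act on H3K27, KDM3A and KDM3B on mono- and dimethylated H3K9, and the KDM4 enzymes on di- and trimethylated H3K9. If a relative were raised through its transcript when Kdm7a is lowered, that transcript would be higher with the Kdm7a-shRNA virus. This is the comparison made below for each gene. A rise in protein or in enzyme activity without more transcript would not be seen, as only RNA was measured here.

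Levels are given as CPM, the reads of a gene relative to all counted reads of the mouse, after scaling with edgeR's TMM factors. Between 6596991 and 12418112 reads per mouse were counted. Kdm7a had 35 to 93 reads in a mouse, for which counting error alone is 10.4 to 16.9%, Phf8 had 21 to 70 reads and Kdm4a, the gene with the most reads, 150 to 331. To pass a comparison, a gene needed a fold change of 1.5 or more and an adjusted p-value below 0.05 by edgeR's quasi-likelihood test adjusted over all 18826 genes.

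The genes were first ordered by their level per kilobase of the principal transcript in the 7 mice with the control virus. Kdm4a stood highest at 8.27 ± 1.30 CPM per kb (SD, n = 7), followed by Kdm3a at 4.82 ± 0.685, and the 7 values of each lay wholly above those of the next gene. Kdm4b (3.13 ± 0.761 CPM per kb) and Kdm4c (2.38 ± 0.381) came next, and Kdm4b was above Kdm4c in 4 of 7 mice. Kdm3b (1.75 ± 0.270 CPM per kb), Phf8 (1.69 ± 0.245) and Kdm6a (1.48 ± 0.428) overlapped in their ranges, as did all neighbours from Kdm4b down, so that their order is not resolved. Kdm7a followed with a mean of 0.883 ± 0.128 CPM per kb, beside Phf2 at 0.846 ± 0.240, and Kdm7a was above Phf2 in 4 of 7 mice. Kdm6b was lowest at 0.601 ± 0.0986 CPM per kb, 13.8-fold below Kdm4a, and 6.79-fold below it in CPM without division by length. The order depended in part on the division by length. Without it, Kdm3b (11.16 CPM) stood above Kdm4c (9.97 CPM), and Kdm6a (8.74 CPM) above Phf8 (6.32 CPM). Within the KDM7 subfamily, Phf8 stood above Kdm7a per kb, whereas without the division Kdm7a, at 8.45 CPM, stood above Phf8 in 6 of 7 control mice. Phf2, beside Kdm7a per kb, had a lower mean of 4.65 CPM without the division. Kdm7a has a principal transcript of 9.57 kb, the longest of the 10. Full-length reads of PCR-amplified cDNA were sequenced, so that a read stands for an amplified cDNA rather than a fragment. Longer transcripts therefore do not gain reads through fragmentation. How evenly long and short transcripts were recovered was not tested, so neither order is an order of molecules in the tissue. The CPM of Kdm7a lay above that of 51.8% of the tested entries.

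Kdm7a (ENSMUSG00000042599; GRCm38, chromosome 6, 39136623 to 39206789, minus strand, 20 exons in the principal transcript) was lower with the Kdm7a-shRNA virus. Its level was 9.78, 9.08 and 9.405 CPM in the 3 Ctrl + Saline mice and 5.745, 4.95, 6.04, 6.07 and 4.925 CPM in the 5 Kdm7a-shRNA + Saline mice. Every mouse with the shRNA virus lay below every control under saline. The 4 Ctrl + Morphine mice had 7.79, 6.19, 8.89 and 8.02 CPM, and the 4 Kdm7a-shRNA + Morphine mice 6.28, 4.44, 3.01 and 6.04 CPM. Under morphine the groups overlapped through 1 mouse on each side, since the highest shRNA mouse was above the lowest control.

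Under saline, Kdm7a fell to 58.9% of the control level (log2 fold change -0.76, standard error 0.204, 95% confidence interval -1.19 to -0.33, adjusted p = 0.0153 by edgeR's quasi-likelihood test) and passed. Under morphine it stood at 63.0% of the control level and did not pass (log2 fold change -0.67 ± 0.206 SE, adjusted p = 0.0506). Over both treatments, with treatment kept apart, it fell to 61.0% (log2 fold change -0.71, 95% confidence interval -1.02 to -0.41, adjusted p = 0.00154). This mean effect uses the same mice as the single comparisons. The effect under morphine minus that under saline was 0.10 on the log2 scale, with a 95% confidence interval of -0.52 to 0.71 (adjusted p = 0.945). The limits of the interval over both treatments corresponded to 0.493- and 0.753-fold of the control level. The call under saline was lost without Ctrl + Saline replicate 3 (log2 fold change -0.79, adjusted p = 0.0533). Under morphine, the value passed without Kdm7a-shRNA + Morphine replicate 1 (-0.80), without replicate 4 of that group (-0.79), without Ctrl + Morphine replicate 2 (-0.76), with library size alone as the scaling (-0.77) and by DESeq2 (-0.67). It did not pass in the other refits. By edgeR's quasi-likelihood test it was -0.47 (adjusted p = 0.167) without Kdm7a-shRNA + Morphine replicate 3, and -0.67 (adjusted p = 0.136) with the compared groups alone.

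**Figure D1:**
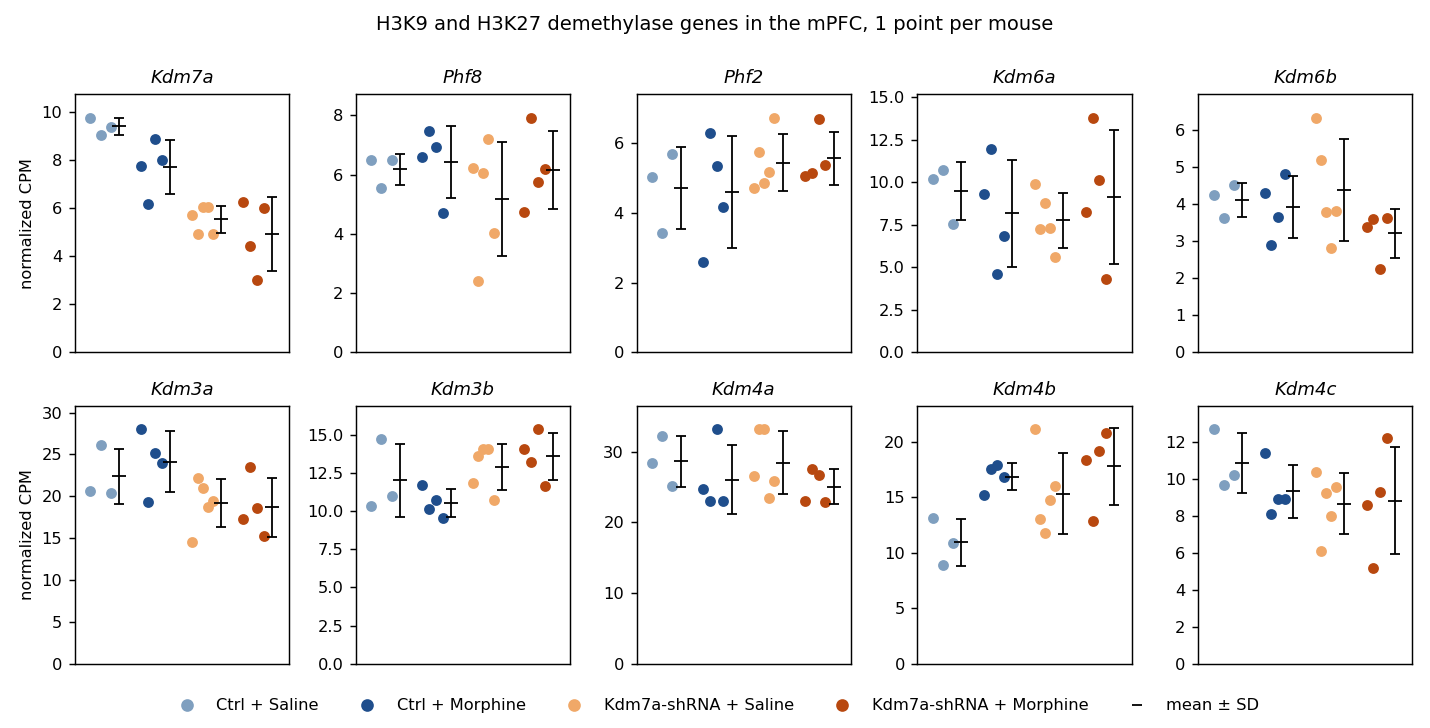
Level of each of the 10 genes as normalized CPM (linear axes from 0), 1 point per mouse in the 4 groups, with the mean and SD in black. Kdm7a lies between 9.08 and 9.78 CPM in the Ctrl + Saline mice and between 4.925 and 6.07 CPM in the Kdm7a-shRNA + Saline mice, whereas the shRNA and control groups of the other genes overlap.

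Other properties of the libraries moved with the virus. Log2 fold changes were lower for longer transcripts. Among the 776 known genes with a principal transcript of 8 kb or more, the median log2 fold change over both treatments was -0.12, against 0.15 in the 2855 genes of 1 to 2 kb. Of those 776 genes, 3.87% were at or below the value of Kdm7a. Under saline this share was 6.70% and under morphine 4.77%. In the same mice, marker genes of microglia were higher. Of 6 markers, 5 passed as higher over both treatments, and their summed level was 311 to 671 CPM in the control mice and 556 to 2310 CPM in the shRNA mice. Of 5 astrocyte markers 3 passed as higher (267 to 499 against 386 to 1010 CPM). Of 6 interneuron markers, Slc32a1 and Pvalb passed as higher and Gad2, Sst and Vip as lower (488 to 549 against 329 to 481 CPM), while 0 of 5 pyramidal neuron markers and 0 of 5 oligodendrocyte markers passed. Of 4 endothelial markers 2 passed as higher (121 to 161 against 147 to 266 CPM). Of 4 general neuronal markers 1, Map2, passed as lower (2170 to 3160 against 1670 to 3180 CPM), and each of the 4 had at least 1326 reads in every mouse. Of all tested genes, 7.68% passed as higher and 9.93% as lower over both treatments. The part of transcript length and of cell composition in the values of the 10 genes was not tested.

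**Figure D2:**
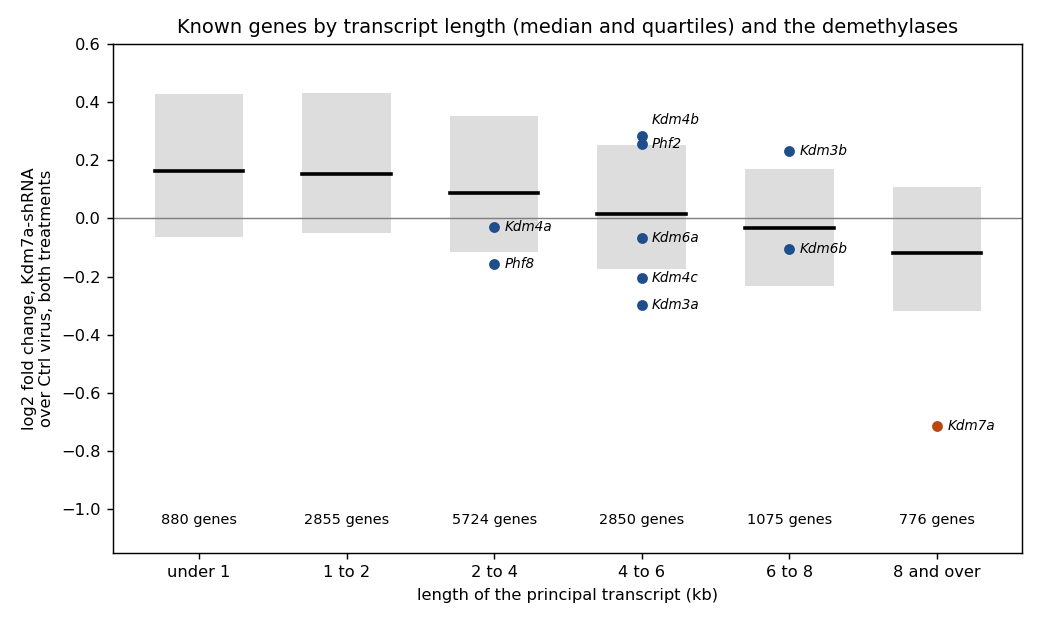
Log2 fold change over both treatments (Kdm7a-shRNA over Ctrl virus) of known genes split by the length of the principal transcript, as the median (black line) and the quartiles (grey box), with the 10 demethylase genes as points. The median runs from 0.16 below 1 kb to -0.12 at 8 kb and over, and Kdm7a at -0.71 lies below the lower quartile of its length class.

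None of the other 9 demethylase genes passed in either direction with the Kdm7a-shRNA virus. Under saline, 0 of 10 were called higher and 1 of 10, Kdm7a, lower, where 7.43% and 9.31% of all tested genes were called higher and lower. Under morphine, 0 of 10 were called in either direction, against 2.86% higher and 4.83% lower of all genes. Over both treatments, 0 were called higher and 1 lower, against 7.68% and 9.93%. At an unadjusted p under 0.05 there were 2 members under saline, 3 under morphine and 3 over both treatments, where 34.7%, 25.5% and 38.8% of all genes reached it. DESeq2 called Kdm7a under saline, under morphine and over both treatments and none of the other 9. The groups of mice did not overlap in 1 of 10 members under saline (Kdm7a) and in 0 of 10 under morphine and over both treatments, against 23.7%, 13.9% and 4.37% of all genes. The median log2 fold change over both treatments was -0.09 for the 10 members, 0.07 for all known genes and 0.01 for all tested entries. 

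For the other 9 genes, the log2 fold change over both treatments ran from -0.30 (Kdm3a) to 0.29 (Kdm4b), with adjusted p-values from 0.0711 to 0.865 by edgeR's quasi-likelihood test. The confidence intervals give how large a rise in the transcript level of the whole tissue could have gone unseen. They hold for the spread between these mice and for this scaling, and they do not limit a rise within the infected cells alone. Their upper limits ran from 0.967-fold for Kdm3a to 1.54-fold for Phf2, and the lowest lower limit was 0.680-fold, for Phf8. In the single comparisons the upper limits reached 1.88-fold under saline and 1.74-fold under morphine. The summed level of the 9 genes was 101.9 to 116.5 CPM in the control mice and 101.5 to 113.9 CPM in the shRNA mice, and these ranges overlapped.

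**Figure D3:**
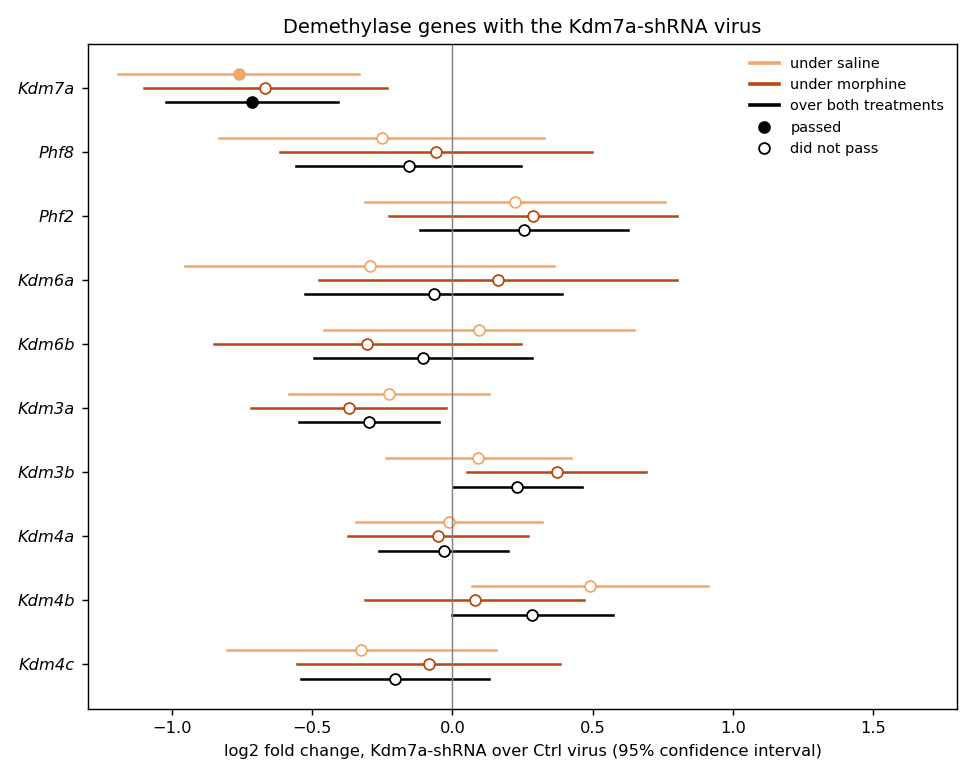
Log2 fold change of each gene, Kdm7a-shRNA over Ctrl virus, with 95% confidence intervals, under saline, under morphine and over both treatments; filled points passed. Only Kdm7a, at -0.76 under saline and -0.71 over both treatments, has filled points.

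Within the KDM7 subfamily, Phf8 and Phf2 had different signs and neither passed. PHF8 removes mono- and dimethyl groups from H3K9, and loss of the human gene on the X chromosome causes intellectual disability. Phf8 (chromosome X, 151520672 to 151633859, plus strand) had 6.48, 5.56 and 6.49 CPM in the Ctrl + Saline mice and 6.20, 2.42, 6.04, 7.20 and 4.02 CPM in the Kdm7a-shRNA + Saline mice. Under morphine it had 6.59, 7.47, 6.94 and 4.71 CPM with the control virus and 4.75, 7.91, 5.76 and 6.17 CPM with the shRNA virus. The groups overlapped, 1 Kdm7a-shRNA + Saline mouse stood lowest at 2.42 CPM with 21 reads, and the log2 fold change over both treatments was -0.16 (± 0.191 SE, adjusted p = 0.581).

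PHF2 is an H3K9 demethylase whose activity depends on its phosphorylation by protein kinase A. Phf2 (chromosome 13, 48801750 to 48871119, minus strand) had 5.02, 3.42 and 5.70 CPM in the Ctrl + Saline mice and 4.71, 5.76, 4.86, 5.17 and 6.73 CPM in the Kdm7a-shRNA + Saline mice. It had 2.60, 6.30, 5.36 and 4.17 CPM in the Ctrl + Morphine mice and 5.06, 5.16, 6.70 and 5.37 CPM in the Kdm7a-shRNA + Morphine mice. The 9 shRNA mice lay in the narrower range, within that of the controls but for 2 mice above it. The log2 fold change of Phf2 was 0.22 under saline, 0.29 under morphine and 0.26 over both treatments (standard error 0.176, adjusted p = 0.304), and the interval over both treatments, 0.923- to 1.54-fold, included no change.

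The share of Kdm7a among the reads of the 3 subfamily genes needs no scaling between libraries, but it is not free of the length trend given above. The principal transcript of Kdm7a is 9.57 kb long, those of Phf8 and Phf2 3.73 and 5.49 kb. The part of length in this share was not tested. It was 43.6 to 50.3% in the Ctrl + Saline mice and 31.4 to 37.7% in the Kdm7a-shRNA + Saline mice, without overlap. Under morphine it was 31.0 to 47.5% with the control virus and 19.4 to 39.0% with the shRNA virus, with overlap. The 3 genes together had 105 to 187 reads in a mouse, so that each share rests on few reads. Of the reads of all 10 genes, Kdm7a took 5.48 to 8.45% in the 7 control mice and 2.57 to 5.76% in the 9 shRNA mice.

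**Figure D4:**
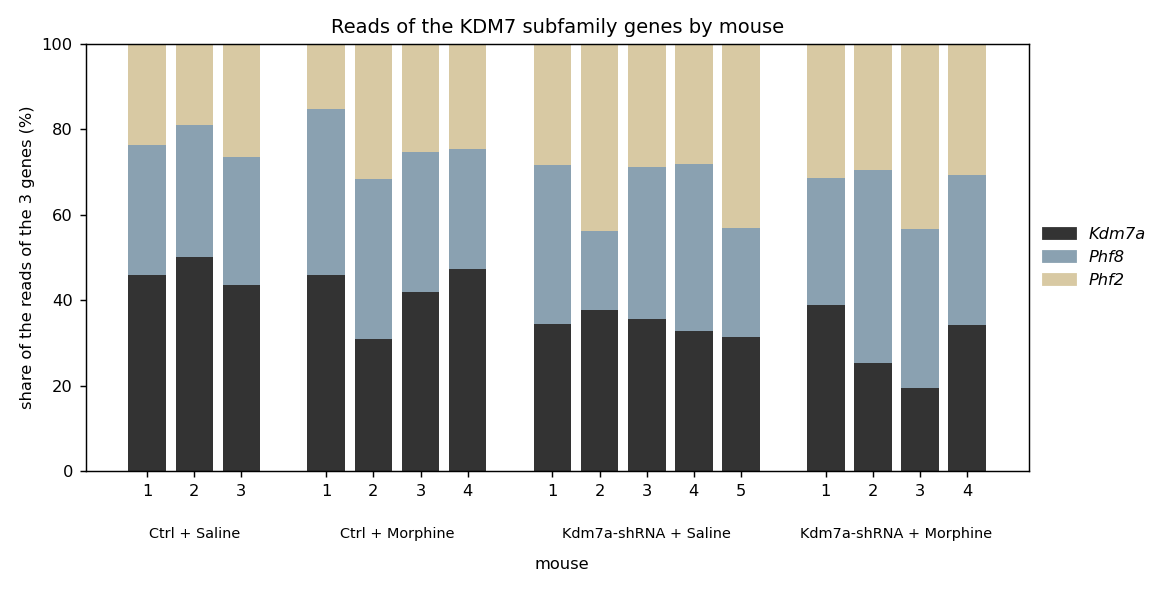
Shares of Kdm7a, Phf8 and Phf2 among the reads of these 3 genes (percent), 1 bar per mouse in the 4 groups. Kdm7a takes 43.6 to 50.3% in the Ctrl + Saline mice and 31.4 to 37.7% in the Kdm7a-shRNA + Saline mice, and it is lowest, at 19.4%, in Kdm7a-shRNA + Morphine replicate 3.

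The KDM6 genes act on H3K27, the residue that KDM7A shares with them. Kdm6a lies on the X chromosome and encodes a demethylase that is also a subunit of the KMT2C and KMT2D methyltransferase complexes. It had 9.49 ± 1.70 CPM in the Ctrl + Saline (SD, n = 3), 8.18 ± 3.15 in the Ctrl + Morphine (n = 4), 7.77 ± 1.62 in the Kdm7a-shRNA + Saline (n = 5) and 9.12 ± 3.95 in the Kdm7a-shRNA + Morphine mice (n = 4). This was the most variable of the 10 genes between mice (biological coefficient of variation 0.287), and its log2 fold change over both treatments was -0.07 (standard error 0.218, adjusted p = 0.853). Kdm6b, which is induced by many stimuli, had 4.12 ± 0.458, 3.91 ± 0.835, 4.39 ± 1.37 and 3.21 ± 0.658 CPM in the groups in the same order. Over both treatments it was -0.10 on the log2 scale (SE 0.185, adjusted p = 0.716).

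The KDM3 genes had opposite signs, and neither passed. KDM3A is induced by low oxygen and serves in metabolic gene control, and KDM3B is its close paralog. Kdm3a had 19.3 to 28.1 CPM in the 7 control mice (median 24.0) and 14.6 to 23.5 CPM in the 9 shRNA mice (median 18.8). The ranges overlapped, and the lowest 5 values were all from shRNA mice. Its log2 fold change was -0.23 under saline, -0.37 under morphine and -0.30 over both treatments (standard error 0.118, unadjusted p = 0.0221, adjusted p = 0.0711 by edgeR's quasi-likelihood test). Kdm3b had 9.52 to 14.7 CPM in the control mice (median 10.7) and 10.8 to 15.4 CPM in the shRNA mice (median 13.6), again with overlap. Its log2 fold change was 0.09 under saline, 0.37 under morphine and 0.23 over both treatments (standard error 0.109, unadjusted p = 0.0481, adjusted p = 0.125). The sign of Kdm3b under saline was the opposite when library size alone was the scaling, to -0.04.

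The KDM4 enzymes act on H3K9 and on lysine 36. Kdm4a, the most abundant of the 10 transcripts per length, was 27.1 ± 4.26 CPM in the 7 control mice and 26.9 ± 3.93 CPM in the 9 shRNA mice (SD). Its log2 fold change over both treatments was -0.03, with a 95% confidence interval of 0.834- to 1.15-fold. Kdm4c was 9.97 ± 1.60 CPM in the control and 8.72 ± 2.13 CPM in the shRNA mice (log2 fold change -0.20, standard error 0.16, adjusted p = 0.366).

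Kdm4b passed in none of the comparisons. It had 13.1, 8.88 and 10.9 CPM in the 3 Ctrl + Saline mice and 15.2, 17.5, 17.9 and 16.8 CPM in the 4 Ctrl + Morphine mice. Every Ctrl + Morphine mouse lay above every Ctrl + Saline mouse. With the shRNA virus it had 21.1, 13.0, 11.7, 14.7 and 15.98 CPM under saline and 18.4, 12.8, 19.2 and 20.8 CPM under morphine, and these groups overlapped. The difference between morphine and saline under the control virus was 0.63 on the log2 scale (standard error 0.208, 95% confidence interval 0.19 to 1.06, unadjusted p = 0.00744) and did not pass over all genes (adjusted p = 0.238 by edgeR's quasi-likelihood test). Under the shRNA virus the difference was 0.22 (adjusted p = 0.825), and the interaction of virus and treatment was -0.41 (95% confidence interval -0.98 to 0.16, adjusted p = 0.636). The effect of the knockdown on Kdm4b was 0.49 under saline (standard error 0.2, adjusted p = 0.0902) and 0.08 under morphine (adjusted p = 0.831). The knockdown value under saline and the morphine value under the control virus share the 3 Ctrl + Saline mice.

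Morphine alone changed none of the 10 genes past the thresholds. With the control virus 0 of 10 passed, as did 0% of all tested genes (DESeq2 called 190 genes and none of the 10), and 1 of 10, Kdm4b, reached an unadjusted p under 0.05, against 11.7% of all genes. The groups did not overlap for Kdm4b, which was higher, and for Kdm7a, which was lower in all 4 Ctrl + Morphine mice than in all 3 Ctrl + Saline mice, 2 of 10 against 12.4% of all genes. For Kdm7a this difference was -0.29 on the log2 scale (standard error 0.212, 95% confidence interval -0.73 to 0.16, adjusted p = 0.643). The paper reported higher Kdm7a mRNA in the mPFC after morphine withdrawal by quantitative PCR, in an experiment described without a virus. The sign here was the opposite, the interval included no change, and the reason for the difference was not tested. With the shRNA virus 0 of 10 passed, against 0.00531% of all genes. The furthest was Kdm6b, at -0.47 on the log2 scale (SE 0.248, adjusted p = 0.742). For the interaction of knockdown and morphine, 0 of 10 passed, against 0.085% of all genes. No member reached an unadjusted p under 0.05 in either of the last 2 comparisons, and DESeq2 called none.

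Other genes of histone methylation were read from 5 lists of 63 genes, of which 60 were tested and Kdm4d, Phf19 and Cbx2 were not. None was called higher in any of the knockdown comparisons, and 6 of 60 were called lower under saline, 1 under morphine and 2 over both treatments, where 9.31%, 4.83% and 9.93% of all tested genes were. At an unadjusted p under 0.05 by edgeR's quasi-likelihood test, 2 were higher and 10 lower under saline, 1 and 8 under morphine, and 1 and 15 over both treatments. Of all tested genes, 34.7%, 25.5% and 38.8% reached this p in either direction, larger shares than in the lists. The median log2 fold change of the 60 genes was -0.09, -0.11 and -0.08 in these comparisons, against 0.10, 0.04 and 0.07 for all known genes.

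Where 16.7% of all tested genes passed under saline and 7.69% under morphine, 0 of 16 other demethylases passed under saline and 1 under morphine. This was Kdm5c, an X-linked H3K4 demethylase, at 16.02 ± 1.76 CPM in the Ctrl + Morphine (SD, n = 4) and 10.1 ± 2.24 CPM in the Kdm7a-shRNA + Morphine mice (n = 4) (log2 fold change -0.65, adjusted p = 0.0256). Its call was lost without Kdm7a-shRNA + Morphine replicate 1 (-0.53) and without Ctrl + Morphine replicates 3 (-0.62) or 4 (-0.60), and in a fit of these groups alone (-0.66). Kdm1a, which demethylates H3K4 and H3K9 by another chemistry, was lower over both treatments at an adjusted p of 0.0079 but by less than the fold threshold (log2 fold change -0.32). The closest relatives of the members did not pass either. Jmjd1c, a paralog of the KDM3 genes, had a log2 fold change of 0.14 (adjusted p = 0.450) and Uty, the Y-linked counterpart of Kdm6a, one of 0.21 (adjusted p = 0.357).

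Next came the enzymes that write H3K9 and H3K27 methylation. Of 9 H3K9 methyltransferases and partners, 1 passed under saline, Prdm2, at 20.6 ± 4.77 CPM in the Ctrl + Saline (SD, n = 3) and 12.5 ± 1.89 CPM in the Kdm7a-shRNA + Saline mice (n = 5) (log2 fold change -0.73, adjusted p = 0.0112). Without Ctrl + Saline replicate 3 the call was lost (-0.60). Under morphine Prdm2 stood at 15.4 CPM with the control and 12.2 CPM with the shRNA virus (-0.34) and did not pass. Of all tested genes, 9.31% were called lower under saline. Ehmt2, which encodes the main H3K9 dimethyltransferase G9a, passed in none of the knockdown comparisons and differed in sign between treatments. Its log2 fold change was 0.49 under saline (adjusted p = 0.0336), -0.32 under morphine (adjusted p = 0.186) and 0.09 over both treatments (adjusted p = 0.587). The adjusted p under saline ran from 0.0179 to 0.196 over the alternatives and with each mouse left out, being highest without Ctrl + Saline replicate 3, and the value passed without Ctrl + Saline replicate 2 (0.59). Of 10 subunits and cofactors of Polycomb repressive complex 2, the H3K27 methyltransferase, 0 passed in any comparison. Over both treatments 2 were lower at an unadjusted p under 0.05, which 38.8% of all tested genes reached in either direction. Mtf2, chosen after its value was seen, was lower over both treatments (log2 fold change -0.44, adjusted p = 0.0275, under the fold threshold; 0.00286 to 0.0602 with each mouse left out).

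Of 11 readers of methylated H3K9 and H3K27, 2 passed under saline and 0 under morphine, against 16.7% and 7.69% of all tested genes. Mphosph8, whose product binds methylated H3K9 in the HUSH silencing complex, was 146.3 ± 12.01 CPM in the Ctrl + Saline (SD, n = 3) and 86.5 ± 15.9 CPM in the Kdm7a-shRNA + Saline mice (n = 5) (log2 fold change -0.76, adjusted p = 0.00472). Under morphine Mphosph8 was 101.1 CPM with the control and 91.75 CPM with the shRNA virus (-0.14). Cdyl2 was called lower under saline at 1.83 against 0.792 CPM (log2 fold change -1.20, adjusted p = 0.0431), and stood at 1.01 against 0.903 CPM under morphine (-0.19). That call was lost without the low-count filter, with known genes alone, by DESeq2, with the replicate number as a block and without any 1 of 5 mice (Ctrl + Saline replicates 2 and 3, Kdm7a-shRNA + Saline replicates 1, 2 and 5), for which the log2 fold change was -1.26 to -0.94.

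Of 14 H3K4 methyltransferases and core subunits, 3 passed under saline and 2 over both treatments, all lower, against 9.31% and 9.93% of all genes called lower. Kmt2a was 67.6 ± 5.92, 60.8 ± 10.8, 41.7 ± 2.88 and 40.9 ± 4.81 CPM in the Ctrl mice on saline, the Ctrl mice on morphine, the shRNA mice on saline and the shRNA mice on morphine. Over both treatments it was -0.64 on the log2 scale (SE 0.092, adjusted p = 0.000111). Kmt2c was 21.0 ± 3.80, 15.8 ± 1.17, 11.8 ± 0.927 and 12.2 ± 2.47 CPM in the same order, and -0.61 on the log2 scale over both treatments (SE 0.109, adjusted p = 0.000588). These fold changes lie near the 1.5-fold threshold, and the calls were lost for Kmt2a without Ctrl + Morphine replicate 4 (-0.57) and for Kmt2c without Ctrl + Saline replicate 2 (-0.53) or Kdm7a-shRNA + Morphine replicates 2 or 3 (-0.58 in each). The third gene under saline was Ncoa6, at a log2 fold change of -0.70 (adjusted p = 0.0299), which was not called without Ctrl + Saline replicate 2 (-0.42) or without Kdm7a-shRNA + Saline replicates 2 (-0.65), 3 (-0.67) or 5 (-0.66). The principal transcripts of Kmt2a and Kmt2c are 16.5 and 15.0 kb long, and so fall in the length class whose median was -0.12. The paralogs Kmt2b and Kmt2d did not pass.

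**Figure D5:**
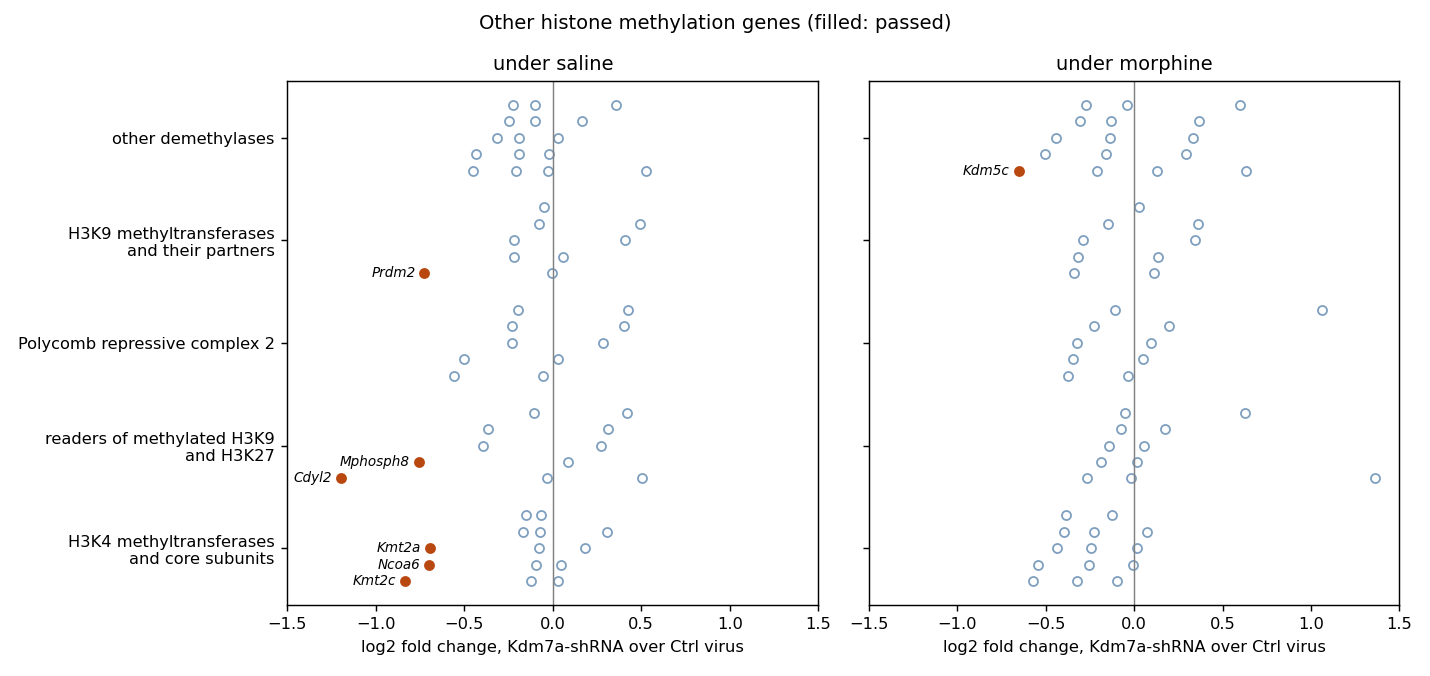
Log2 fold change, Kdm7a-shRNA over Ctrl virus, of 60 further histone methylation genes in 5 lists, under saline (left) and under morphine (right), 1 point per gene; filled, named points passed. The 6 filled points under saline and the 1 under morphine all lie below 0.

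Across the 16 mice, the known genes whose log2 CPM followed that of Kdm7a most closely were Fat3 (Pearson's r = 0.924), Vip (0.922) and Hcfc2 (0.904). The points share the groups and the virus, so these values describe the mice and are not tests. Fat3, a large cadherin, ran from 21.7 to 30.3 CPM in the Ctrl + Saline, 18.8 to 23.7 in the Ctrl + Morphine, 13.7 to 17.8 in the Kdm7a-shRNA + Saline and 10.6 to 17.4 CPM in the Kdm7a-shRNA + Morphine mice. Vip, a neuropeptide of an interneuron class, ran from 77.6 to 108.2, 55.6 to 76.3, 39.5 to 58.6 and 27.2 to 65.5 CPM in the same order. The correlation of the other 9 demethylases with Kdm7a over the 16 mice lay between -0.51 (Phf2) and 0.46 (Kdm4c).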

How the data were processed

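RNA of the mPFC of 16 mice was sequenced on the Nanopore platform by cDNA-PCR. Per the study's methods, the authors discarded short, low-quality and ribosomal reads, kept full-length ones, mapped them to mm10 with minimap2 and summed the reads per gene. The submitters' processing notes also name edgeR 3.8.6. The deposited counts are whole, not normalized read counts per gene, and the CPM that the authors deposited are these counts relative to the library total, to within 4.99e-06. The counts were used for every test.

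The analysis used edgeR 4.0.16 in R 4.3.3. Low counts were removed with filterByExpr over the groups, and libraries were scaled with TMM factors, which were 1.02 to 1.07 in the control mice and 0.913 to 0.991 in the shRNA mice. The quasi-likelihood test was run on 1 fit of all mice with 1 coefficient per group, with Benjamini-Hochberg adjustment over 18826 entries, 14162 of them known genes. The adjusted p of 0.05 and the fold change of 1.5 follow the study's methods. A standard error is the size of the log2 fold change over the root of the F statistic. Likeness to Kdm7a was taken on log2 of CPM plus 0.5. Positions and lengths are from GENCODE vM21 on GRCm38, with the longest APPRIS principal transcript of a gene. Entries of assembled loci, 7.47 to 11.4% of the reads of a mouse, were kept in the totals.

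Labels give each mouse its group and number. Within groups, mice correlated at 0.956 to 0.985 and differed by more than counting error (chi-square per degree of freedom of at least 8.33), so that none was taken as a repeat. Intervals hold for the spread between these mice. The 10 genes, the 5 lists and the marker lists were chosen with earlier results of these data known, and the lists are therefore described by counts and medians. Named genes are the 10 members, every listed gene that passed a knockdown comparison and the 3 known genes most like Kdm7a. Kdm1a, Ehmt2, Mtf2, Jmjd1c, Uty, Kmt2b, Kmt2d and the length classes were chosen after the values were seen. Alternatives were scaling by RLE or by library size only, tests without a filter or with 10 counts required in every mouse, known genes only, the compared groups alone, DESeq2 1.42.0, a block for replicate number, no fold threshold, and each mouse left out in turn. Levels per kb and the length classes were added after the data had been seen. The fit was tested on simulated data. Transcript-level values were not used here.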

Additional observations from a re-analysis of the deposited data

How the results depend on the processing

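In 580 alternative calls of the 30 log2 fold changes of the 10 genes in the knockdown comparisons, 549 kept the direction and the side of the thresholds. Of the 522 for the 9 other genes, 0 passed. The 580 include the calls without a fold threshold, which reuse the main fit and so cannot change direction. The others are refits that share most of their mice. The number of members called under saline was 1, and 0 to 1 with each mouse left out. Under morphine it was 0, 0 to 1 with each mouse left out, and 1 with library size only and with DESeq2, where Kdm7a reached -0.77 (adjusted p = 0.0301) and -0.665 (adjusted p = 0.0354). With each mouse left out, the log2 fold change of Kdm7a was -0.798 to -0.721 under saline, -0.799 to -0.47 under morphine and -0.781 to -0.616 over both treatments, where it passed in all 16 fits.

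Small values changed sign. With library size only, which shifted the median of all genes by -0.133, -0.108 and -0.12 under saline, under morphine and over both treatments, Kdm6b was -0.038 and Kdm3b -0.0431 under saline and Kdm4b was -0.0284 under morphine. The share of higher among all passing genes was then 29.2, 24.0 and 30.6%, against 44.4, 37.2 and 43.6%, and 61.6, 60.8 and 71.5% with known genes only. Leaving out each mouse gave, under saline, Kdm6b -0.0723 to 0.219, Kdm3b -0.0428 to 0.276, Kdm4a -0.12 to 0.0905 and Kdm5c -0.184 to 0.0145. Under morphine it gave Phf8 -0.203 to 0.0391, Kdm6a -0.102 to 0.399, Kdm4a -0.107 to 0.086, Kdm4b -0.00227 to 0.208, Kdm4c -0.277 to 0.103 and Cdyl2 -0.51 to 0.177. Over both treatments it gave Kdm6a -0.198 to 0.0525 and Kdm4a -0.0818 to 0.0359, and the interaction for Kdm7a was -0.0363 to 0.291.

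The replicate numbers were not used to pair mice in the main fit. Deviations from the group means correlated at -0.116 to 0.433 in 21 same-numbered pairs, of which 6 exceeded 0.1. In 74 different-numbered pairs they correlated at -0.514 to 0.342, and 13 exceeded 0.1. Whether mice of 1 number shared a batch was not tested. With the number as a replicate block, Kdm4a was 0.0705 under saline and 0.00976 over both treatments, Kdm6a was 0.0631 over both treatments, and the numbers of members called were those of the fit without it. Counting error at these depths was 10.4 to 16.9% for Kdm7a and up to 21.8% for Phf8.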
